A study of Mus musculus with 6 samples.

Results

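The SMAD family of the mouse comprises 8 genes, Smad1, Smad2, Smad3, Smad4, Smad5, Smad6, Smad7 and Smad9, and they were described here in epiblast stem cells with and without Activin A. The members were taken by symbol, with every annotated transcript of each gene. This gave 8 of 52609 annotated genes and 38 of 133399 transcripts, of which 25 carried the protein-coding biotype. Poly(A) RNA was sequenced in 3 libraries with Activin A at 20 ng/mL and in 3 libraries in which Activin A was left out. Both groups were epiblast stem cells, a primed pluripotent cell of the mouse, grown on inactivated embryonic fibroblast feeders with serum replacement. Both also received FGF2 at 10 ng/mL, the Wnt secretion inhibitor IWP2 at 5 µM and SB431542 at 2 µM. SB431542 blocks the kinases of the type I Activin, Nodal and TGF-beta receptors, so that this receptor inhibitor was present on both sides of the comparison.

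The grouping followed titles and genotype labels. The library without Activin A replicate 1 is an exception in that its growth factor field lists Activin A, and the treatment protocol lists it for all 6 libraries. The series' design text speaks of 2 lines in 3 replicates each, and the labels do not say which library came from which line. If the lines are the 2 groups, cell line and Activin A cannot be told apart. Separate cultures are not stated, and the p-values therefore measure only the spread between these libraries, which may be technical. Depth was 9946521 to 16350923 estimated reads in the group with Activin A, against 13567995 to 14992042 in the group without it. The spread between pairs of libraries, as chi-square per degree of freedom, was 3.66 to 7.19 with Activin A, against 1.87 to 2.10 without. Pairs that held replicate 3 with Activin A were the furthest apart within a group, at 6.07 and 7.19. Of the fixed marker lists, the 12 epiblast genes summed to 2185 to 2216 CPM with Activin A and 1462 to 1493 CPM without (CPM, counts scaled to library size by TMM), and none was at 0 in all libraries. The 18 fibroblast feeder genes summed to 1190 to 1313 CPM with Activin A and 1762 to 1786 CPM without, and again none was at 0 in all libraries. The 10 mesendoderm genes summed to no more than 4.54 CPM in any library, and the 7 extraembryonic genes to no more than 2.75 CPM.

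SMAD proteins carry signals of the TGF-beta superfamily from cell-surface receptors to the nucleus. SMAD2 and SMAD3 are phosphorylated by the Activin, Nodal and TGF-beta type I receptors, and SMAD1, SMAD5 and SMAD9 by the BMP type I receptors. Phosphorylated receptor SMADs assemble with the common partner SMAD4 and act on DNA with cofactors such as FOXH1. SMAD6 and SMAD7 are inhibitory members that compete for the receptors and recruit ubiquitin ligases, and they are themselves induced by the pathways they restrain. In epiblast stem cells the Activin branch is known for sustaining the primed pluripotent state. The transcript level of a SMAD gene is not a measure of its phosphorylation.

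The upstream windows of 3 members are shown, Smad3 because it is the member of the Activin branch for which a window was at hand, Smad6 because it lies beside Smad3 on chromosome 9, and Smad9 because its window held a searched motif. Each is the 250 bases before the RefSeq start on GRCm38.p6, 5′ to 3′ on the strand of the gene, with capitals marking the motif GGCGCC where it occurs.
Smad3, chr9:63757995-63758244, minus strand: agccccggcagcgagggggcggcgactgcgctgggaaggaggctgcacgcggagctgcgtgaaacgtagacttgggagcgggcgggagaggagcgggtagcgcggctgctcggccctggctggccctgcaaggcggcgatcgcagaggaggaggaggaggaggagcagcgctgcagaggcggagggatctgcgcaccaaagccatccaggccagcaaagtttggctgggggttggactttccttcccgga
Smad6, chr9:64022060-64022309, minus strand: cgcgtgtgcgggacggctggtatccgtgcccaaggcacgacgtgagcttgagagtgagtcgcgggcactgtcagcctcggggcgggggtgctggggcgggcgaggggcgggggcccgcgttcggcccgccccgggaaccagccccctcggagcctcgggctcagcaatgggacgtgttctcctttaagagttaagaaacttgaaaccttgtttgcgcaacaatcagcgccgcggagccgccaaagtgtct
Smad9, chr3:54755332-54755581, plus strand: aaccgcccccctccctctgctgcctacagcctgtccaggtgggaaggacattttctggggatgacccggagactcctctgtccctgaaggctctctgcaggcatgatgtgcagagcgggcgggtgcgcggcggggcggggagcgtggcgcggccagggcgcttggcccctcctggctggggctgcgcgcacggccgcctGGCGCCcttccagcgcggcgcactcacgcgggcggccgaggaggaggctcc
Windows were found for 5 of the 8 genes (Smad1, Smad3, Smad5, Smad6 and Smad9). The letters searched on both strands were the SMAD box pair GTCTAGAC, the single box CAGAC, the GC-rich palindrome GGCGCC and the FOXH1 site AATCCACA. On the opposite strand the single box reads GTCTG and the FOXH1 site reads TGTGGATT, and both other motifs read alike on either strand. No searched motif holds another. Of 32851 RefSeq upstream windows of the same length, 0.167% held GTCTAGAC, 42.2% held CAGAC, 9.59% held GGCGCC and 0.718% held AATCCACA. The windows of Smad1, Smad3 and Smad6 held none of the 4 motifs. Of the 3 windows of Smad5, 1 held GGCGCC and 1 held CAGAC, each once. The window of Smad9 held GGCGCC once, 51 bases before the start.

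**Figure D1:**
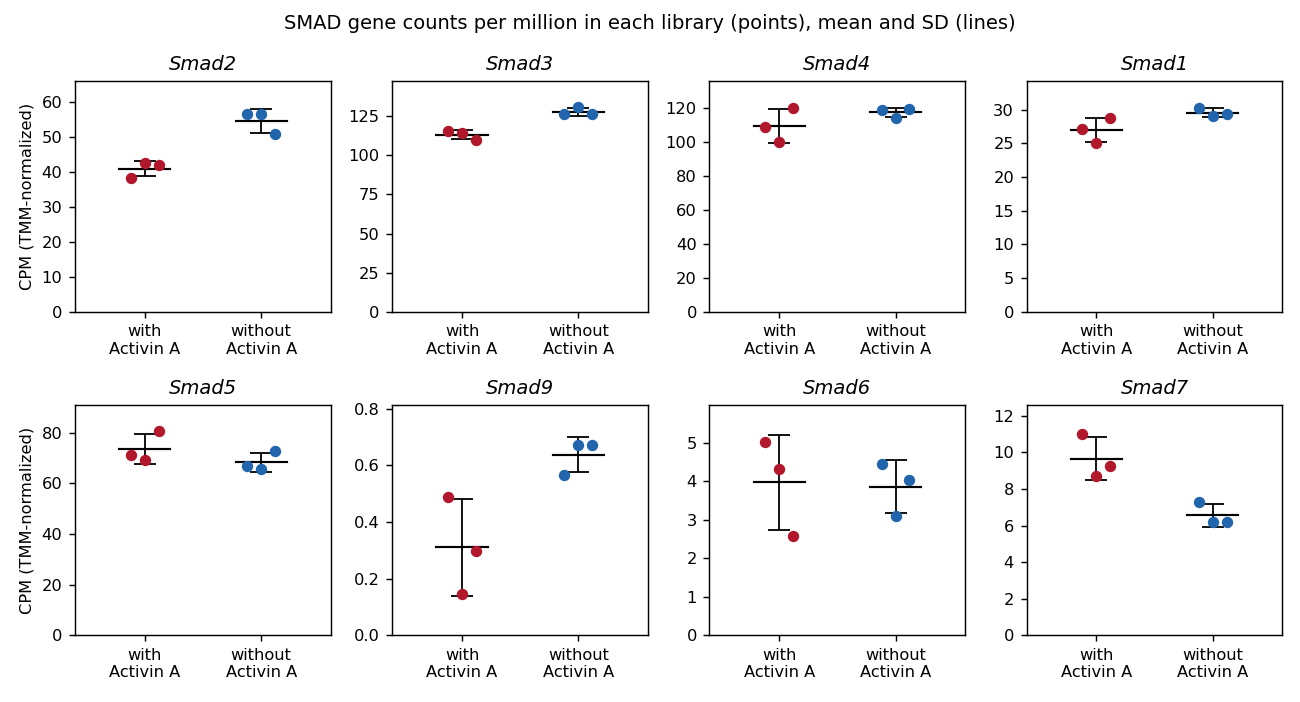
TMM-normalized CPM (y axis) of each of the 8 SMAD genes in every library, 1 panel a gene with its own scale starting at 0, with Activin A on the left and without on the right; points are libraries and bars are means with SD. The 3 libraries with Activin A lie below those without for Smad1, Smad2, Smad3 and Smad9 and above them for Smad7. Of these, Smad1 was not called, and Smad9 was not tested and rests on at most 10.0 reads a library.

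Among the receptor SMADs of the Activin branch, both genes were lower with Activin A, and among the inhibitory SMADs Smad7 was higher. In the gene test, edgeR's quasi-likelihood F test with Benjamini-Hochberg adjustment at 0.05, 7 of the 8 genes passed the filter on low counts and 3 were called, 1 higher and 2 lower with Activin A. The same test called 29.2% of all 15448 genes tested, 15.2% as higher and 14% as lower, so that 3 of 7 has to be read against a background at which 29.2% of genes were called. The median log2 fold change of the 7 tested SMAD genes, with minus without Activin A, was -0.10, against -0.0012 for all genes tested. Their median absolute log2 fold change was 0.14, against 0.16 for all genes tested. Of the tested SMAD genes, Smad1, Smad2, Smad3 and Smad7 did not overlap between the groups. This was also so for 42.9% of all tested genes.

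Smad2 (ENSMUSG00000024563) was lower with Activin A. It lies on chromosome 18 of GRCm38 at 76241580 to 76310963 on the plus strand. It had 38.4, 42.5 and 42.1 CPM in the libraries with Activin A, against 56.6, 56.7 and 50.8 CPM in those without. All 3 libraries with Activin A lay below all 3 without. The means were 41.0 ± 2.24 CPM with Activin A and 54.7 ± 3.35 CPM without (SD, n = 3 each). The difference was -0.42 ± 0.07 on the log2 scale (estimate ± SE), a ratio of 0.747 (edgeR adjusted p = 0.000246). The values rest on 422 to 629 estimated reads per library with Activin A, against 680 to 841 in the others. In bulk samples such as these, fewer cells of a type and less RNA per cell cannot be told apart.

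Smad3 (ENSMUSG00000032402) was also lower with Activin A, by a smaller amount. It lies on chromosome 9 at 63646767 to 63757994 on the minus strand. It had 115.3, 114.3 and 109.8 CPM in the libraries with Activin A, against 126.2, 130.7 and 126.5 CPM in those without. The groups did not overlap, and the spread within each group was small. The means were 113.2 ± 2.92 CPM with Activin A and 127.8 ± 2.52 CPM without (SD, n = 3 each). This was a log2 fold change of -0.17 ± 0.05 (SE), or a ratio of 0.886 (edgeR adjusted p = 0.016). The call was lost on leaving out any 1 library without Activin A, at adjusted p = 0.054, 0.0909 and 0.0558 for replicates 1, 2 and 3, with log2 fold changes of -0.19, -0.16 and -0.18.

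Beside both genes, the summed feeder markers were also lower with Activin A, at 1190 to 1313 CPM with and 1762 to 1786 CPM without, with Tagln, Acta2 and Col1a1 as the most abundant. By direction, 7 of the 17 tested feeder genes were higher and 5 were lower with Activin A. Of the 12 epiblast genes, 10 were higher and 2 were lower with Activin A, where the test called 29.2% of all genes. The part of the feeder cells in the Smad2 and Smad3 values was not tested.

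Within the Activin branch the ratio of Smad3 to Smad2 CPM was 2.77 ± 0.207 with Activin A and 2.34 ± 0.133 without (SD, n = 3 each). The 3 ratios with Activin A lay above the 3 without, which gives p = 0.1 in the two-sided exact permutation test, the smallest value that 3 against 3 libraries allow. By summed TPM, a length-scaled level described below, the direction was the opposite. Smad3 then held 58.5%, 54.9% and 50.2% of the TPM of Smad2 and Smad3 with Activin A. Without Activin A it held 59.9%, 61.5% and 61.5%, and the groups did not overlap. The direction of the shift between Smad3 and Smad2 therefore depended on the unit. Over the 6 libraries and 10903 protein-coding genes of at least 5 mean CPM, the genes whose log2 CPM was most like that of Smad2 were Twf1, Mob3a and Msl1, with Pearson correlations of 0.997, 0.994 and 0.993. Those most like Smad3 were Ppargc1b, Zswim8 and Cit, at 0.998, 0.997 and 0.997. These correlations span both groups, share the same 6 libraries and are given as a description.

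The receptor SMADs of the BMP branch did not pass the test. Smad1 (chromosome 8, 79338395 to 79399518, minus strand) had 27.1, 25.1 and 28.7 CPM with Activin A, against 30.3, 29.0 and 29.4 CPM without. The groups did not overlap, yet the log2 fold change of -0.14 ± 0.07 (SE) did not pass (edgeR adjusted p = 0.172). Its 95% interval ran from -0.29 to 0.02. Smad5 (chromosome 13, 56703010 to 56742377, plus strand) had 71.3, 69.4 and 80.5 CPM with Activin A, against 66.8, 65.8 and 72.7 CPM without. The groups overlapped, with a log2 fold change of 0.10 and a 95% interval of -0.04 to 0.25 (edgeR adjusted p = 0.278). After removal of the trends on GC content and length, Smad5 was called as higher with Activin A, by 0.17 on the log2 scale (edgeR adjusted p = 0.00346).

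The estimates of Smad1 and Smad5 differed in sign. The ratio of Smad1 to Smad5 CPM was 0.366 ± 0.0122 with Activin A and 0.433 ± 0.0261 without (SD, n = 3 each), with no overlap and again the smallest two-sided exact permutation p of 0.1. Smad9 (chromosome 3, 54755582 to 54801257, plus strand), the third receptor SMAD of the BMP branch, was close to the limit of detection. It had 8.13, 2.07 and 3.07 estimated reads with Activin A, against 8, 10.0 and 8.95 reads without, and it did not pass the filter, so that a difference was not tested. Scaled to library size this was 0.489, 0.146 and 0.299 CPM with Activin A, against 0.567, 0.674 and 0.673 CPM without. The scaled values did not overlap between the groups, whereas the reads did. Of the 31-base words of Smad5, 1.09% also occur in other genes, chiefly in the small RNA Gm27301 that overlaps it on the same strand. For Smad9, with its few reads, 1.05% of the words also occur in other genes, chiefly in Cybrd1.

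Smad4, the common partner of both branches, did not pass the test. It lies on chromosome 18 at 73639009 to 73703780 on the minus strand. It had 108.9, 100 and 120 CPM with Activin A, against 118.9, 114.1 and 119.2 CPM without. The library with Activin A replicate 3 was above all 3 libraries without, and the other two were below them. The difference on the log2 scale was -0.10 ± 0.06 (SE), with a 95% interval of -0.24 to 0.03 (edgeR adjusted p = 0.255). On leaving out the library with Activin A replicate 3 it was -0.16 and passed (edgeR adjusted p = 0.00547). AC132418.2, a pseudogene, overlaps Smad4 on the opposite strand, and the strand setting of the counting is not known here.

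Of the inhibitory SMADs, Smad7 was higher with Activin A and Smad6 did not pass the test. Smad7 (ENSMUSG00000025880; chromosome 18, 75367529 to 75395935, plus strand) encodes the inhibitor that acts on Activin and TGF-beta as well as BMP receptors. It had 11, 8.71 and 9.28 CPM with Activin A, against 7.30, 6.20 and 6.21 CPM without. Every library with Activin A was above every library without. It was 0.57 ± 0.13 higher on the log2 scale (SE), a ratio of 1.48 (edgeR adjusted p = 0.00386). Behind it stood 93 to 180 estimated reads per library with Activin A, against 83 to 103 without. Its call was lost with an average transcript length offset (log2 fold change 0.49, edgeR adjusted p = 0.17) and with limma on log2(TPM + 1), at 0.32 with an adjusted p of 0.239.

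Smad6 (chromosome 9, 63953076 to 64022059, minus strand), which acts chiefly against BMP receptors, had 5.01, 4.32 and 2.59 CPM with Activin A, against 4.46, 3.10 and 4.04 CPM without. The groups overlapped widely. Its log2 fold change was 0.09, with a 95% interval of -0.37 to 0.55 (edgeR adjusted p = 0.809), on 26 to 82 estimated reads a library. That interval was the widest of the 7 tested genes. The ratio of Smad7 to Smad2 CPM was 0.237 ± 0.0432 with Activin A and 0.120 ± 0.0099 without (SD, n = 3 each). Every library with Activin A was higher in Smad7 and lower in Smad2 than every library without. The ratios therefore could not overlap, and they add no test to the results of the single genes.

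**Figure D2:**
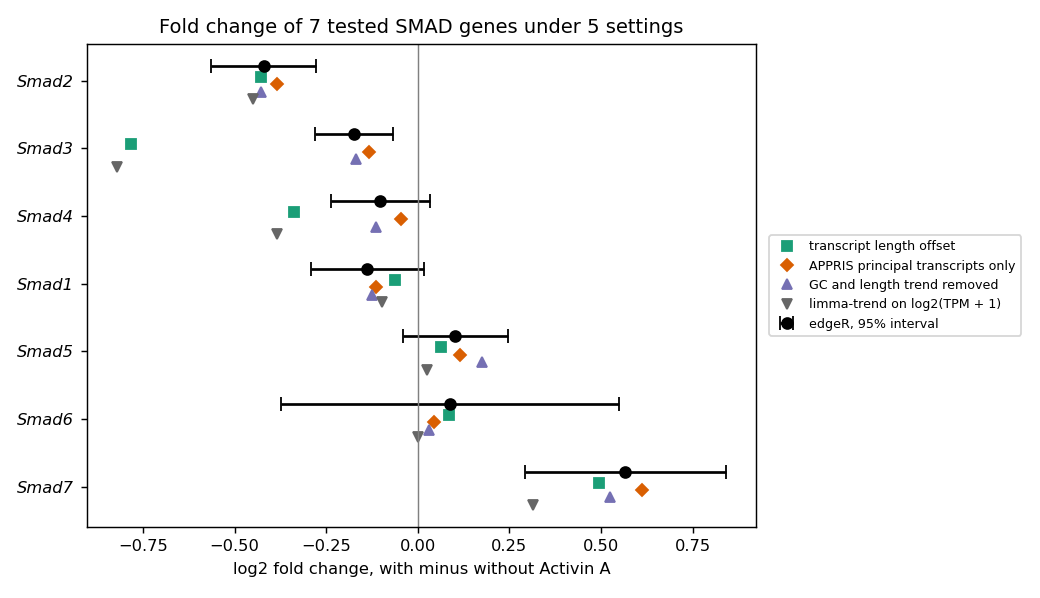
Log2 fold change, with minus without Activin A (x axis), of the 7 tested SMAD genes by role; circles and bars are edgeR's quasi-likelihood estimates with 95% intervals, the other markers are the estimates under 4 other settings and the line marks no change. The intervals of Smad2 and Smad3 lie below 0 and that of Smad7 above it, and the other 4 cross 0, while the settings that weight by transcript length move Smad3 to -0.78 and -0.82.

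Levels of different genes were compared per length, in TPM (a length-scaled share of the transcripts in a library). In each of the 6 libraries the order of the summed TPM was Smad4, Smad3, Smad2, Smad5, Smad1, Smad7, Smad6 and Smad9, from high to low. TPM summed over all transcripts of a gene can rest on a few reads, since a short annotated transcript turns a few reads into a large TPM. For this reason levels are also given for the transcripts marked as APPRIS principal (the main coding isoforms), a choice made after the data had been seen, and the order was the same in all 6 libraries. Principal transcripts of Smad4 stood at 20.5 ± 3.44 TPM with Activin A and 21.9 ± 0.650 TPM without (SD, n = 3 each). Those of Smad3 stood at 14.3 ± 0.704 TPM with Activin A and 15.9 ± 0.706 TPM without. Those of Smad2 stood at 9.12 ± 1.22 TPM with Activin A and 11.8 ± 1.52 TPM without.

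The BMP receptor SMADs were lower than these. Principal transcripts of Smad5 stood at 7.15 ± 1.04 TPM with Activin A and 6.62 ± 0.184 TPM without, and those of Smad1 at 5.63 ± 0.770 and 6.11 ± 0.192 TPM. With Activin A, the ranges of Smad5 and Smad1 overlapped across libraries, as did those of Smad2 and Smad5. Within each library the order held, with Smad2, Smad5 and Smad1 at 8.23, 6.79 and 5.50 TPM in replicate 1 with Activin A. They stood at 8.61, 6.34 and 4.93 TPM in replicate 2, and at 10.5, 8.33 and 6.45 TPM in replicate 3. These differences between genes were not tested. The inhibitory members were lower again, with Smad7 at 1.91 ± 0.132 TPM with Activin A and 1.15 ± 0.0856 TPM without, and Smad6 at 0.899 ± 0.249 and 0.891 ± 0.140 TPM. Smad9 was last, at 0.0389 TPM with Activin A and 0.0784 TPM without.

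**Figure D3:**
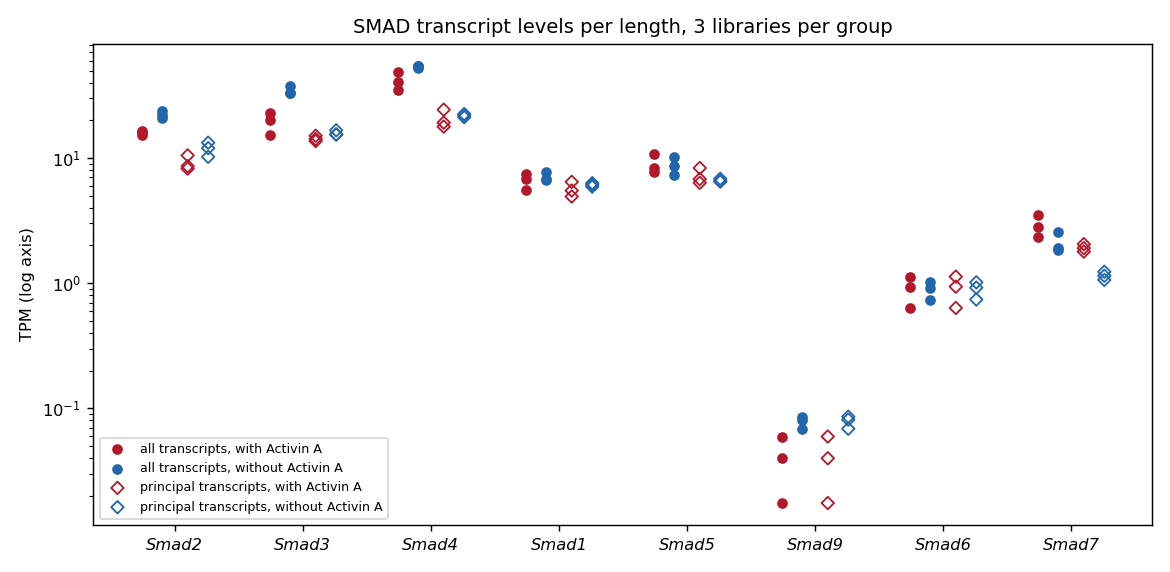
TPM of the 8 SMAD genes (y axis, log scale) in every library, with Activin A left of without, as the sum over all transcripts and as principal transcripts only. The order of the genes is the same in all 6 libraries by both levels, and the summed TPM of Smad3 lies above that of its principal transcript by far more in the libraries without Activin A than in the library with Activin A replicate 3, where they were 15.3 and 15.1 TPM.

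By role, the summed TPM of Smad2 and Smad3 was 35.4 ± 4.31 with Activin A and 56.9 ± 3.92 without, and that of Smad1, Smad5 and Smad9 was 15.6 ± 2.00 with and 15.9 ± 1.55 without (SD, n = 3 each). The Activin branch therefore held 2.32 ± 0.516 times the TPM of the BMP branch with Activin A and 3.60 ± 0.392 times without. For principal transcripts the ratio was 1.84 ± 0.126 with Activin A and 2.16 ± 0.174 without, so that the gap between the groups was smaller. Smad6 and Smad7 together made up 3.92% ± 0.367 of the TPM of the family with Activin A and 2.33% ± 0.482 without.

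For Smad3, Smad4 and Smad7 the whole gap between summed and principal levels lay in transcripts of under 1000 bases. For Smad2 these held 67.6% to 80.4% of that gap, and Smad2-203, of 1305 bases, held the remainder. Transcripts of under 1000 bases held 2.62%, 1.95% and 0.0711% of the Smad3 reads with Activin A, against 4.41%, 4.94% and 4.59% without. The same transcripts held 37.5%, 32.2% and 1.602% of the Smad3 TPM with Activin A, against 53.4%, 55.8% and 53.4% without. The groups did not overlap in either share, and the library with Activin A replicate 3 stood far below the other 2 of its group. Over whole libraries, 21.5% to 22.8% of the reads fell on transcripts of this length with Activin A, against 21.2% to 21.5% in the group lacking it.

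Nearly all of these Smad3 reads were on Smad3-202 and Smad3-204, of 429 and 466 bases. Smad3-202 had 12.1, 11.1 and 0.10 estimated reads with Activin A, against 43.7, 42.4 and 25.97 without. Smad3-204 had 33.0, 19.3 and 0.68 estimated reads with Activin A, against 34.9, 53.3 and 51.6 without. The full-length coding transcript Smad3-201, of 5090 bases, carried most of the reads, 1100 to 1838 with Activin A, against 1614 to 1844 in the group lacking it. Scaled to library size, Smad3-201 had 114.7, 114.2 and 111.2 CPM with Activin A, against 120.3, 124.1 and 120.4 CPM without. Its log2 fold change in the transcript test was -0.10 ± 0.04 (SE; edgeR adjusted p = 0.317). The Smad3 log2 fold change depended on how these reads were weighted, at -0.17 by counts, -0.78 with a transcript length offset and -0.82 by limma on log2(TPM + 1). With principal transcripts only it was -0.13, and the call was lost (edgeR adjusted p = 0.0697).

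**Figure D4:**
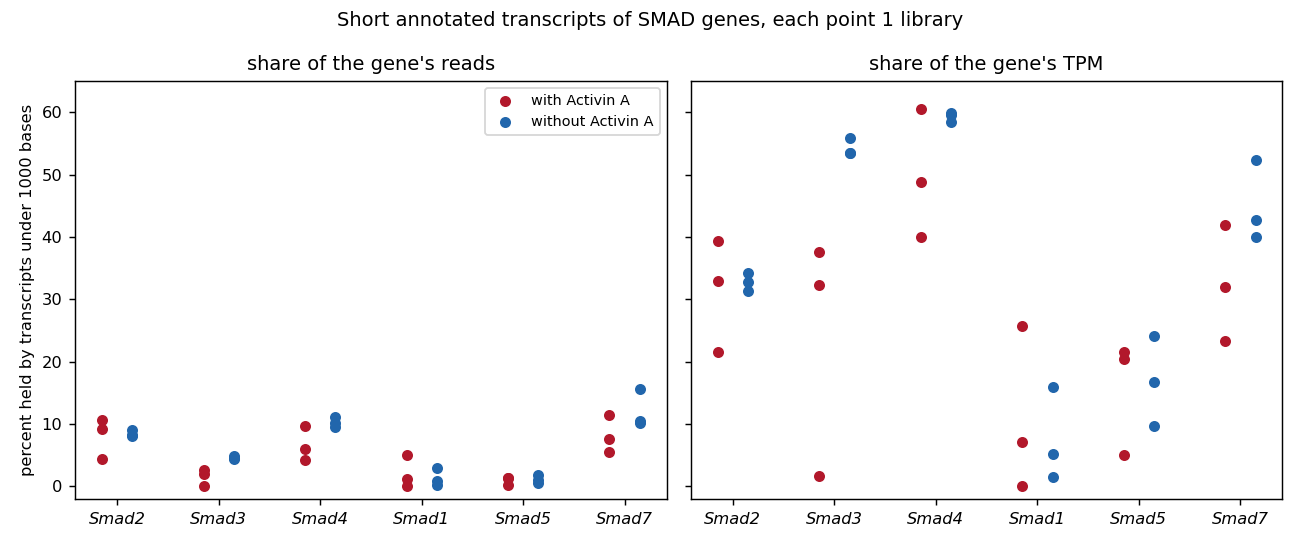
Share of the estimated reads (left) and of the TPM (right) of 6 SMAD genes (y axes, percent) in transcripts of under 1000 bases, for every library, with Activin A left of without. For Smad3 a share of the reads of at most 4.94% goes with a share of the TPM of up to 55.8%.

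In the test of single transcripts, edgeR's quasi-likelihood F test with adjustment over 39997 transcripts, 20 SMAD transcripts passed the filter and 0 were called, against 2.71% of all transcripts tested (1.44% as higher and 1.28% as lower). At an unadjusted p of 0.05, 7 of the 20 passed, against 15.1% of all transcripts tested. DESeq2 called 4 of the 20 (Smad3-202, Smad4-202, Smad4-205 and Smad7-202), against 9.4% of all transcripts it tested. By direction, 15 of the 20 had lower and 5 had higher estimates with Activin A, and 50.7% of all transcripts tested had lower estimates. Of the other 18 annotated SMAD transcripts, 5 were at 0 in all libraries. Read assignment between overlapping transcripts is itself an estimate, and its uncertainty is not part of these tests. Estimated reads of single transcripts are given without scaling to library size, unless CPM is named.

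A pair of Smad4 transcripts showed the widest gap between groups. Smad4-202, which has the same coding sequence as the main transcript Smad4-201, had 1.07, 15.3 and 0 estimated reads with Activin A, against 42.0, 107.5 and 133.1 without. Smad4-205, a processed transcript with no annotated coding sequence, had 5.29, 0 and 0 reads with Activin A, against 57.9, 25.2 and 20.3 without. Together they held 0.357%, 1.117% and 0% of the Smad4 reads with Activin A, against 5.95%, 7.83% and 9.62% without. The pair was pooled after the values were seen, and each transcript alone was lower in every library with Activin A. The pooled shares therefore could not overlap, and they add no test. The adjusted p in edgeR's transcript test was 0.207 for Smad4-202 and 0.159 for Smad4-205, and in DESeq2 it was 0.00615 and 0.00172. Smad4-201 itself had a log2 fold change of 0.08 ± 0.09 (SE). Of the short noncoding transcripts of Smad4, Smad4-203 had 23.5 to 63.4 estimated reads with Activin A, against 64.2 to 79.9 in the group lacking it, and Smad4-204 had 27.5 to 95.7 reads, against 45.3 to 83.5. Neither passed (edgeR adjusted p = 0.285 and 0.941).

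The mix of transcripts within a gene was tested in 8968 genes. Smad4 was called by edgeR's diffSpliceDGE (adjusted p = 0.00926), which called 2.69% of these genes, and it was not called by limma's diffSplice on the same transcripts (adjusted p = 0.419), which called 3.11%. On simulated data diffSpliceDGE made more false than true calls. That balance depends on the number and size of the changes simulated, so it cannot decide the Smad4 call. The Smad4 call is still not relied on, since limma's diffSplice did not make it. The call was also lost on leaving out any library without Activin A. The diffSpliceDGE adjusted p was then 0.0558, 0.0652 and 0.0889 for replicates 1, 2 and 3. The other 5 SMAD genes with at least 2 tested transcripts (Smad1, Smad2, Smad3, Smad5 and Smad7) were called by neither.

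The reads of Smad2 fell mainly on 2 transcripts with the same coding sequence. Smad2-201 had 268, 257 and 159 estimated reads with Activin A, against 282, 394 and 168 without. Smad2-205 had 251, 210 and 222 reads with Activin A, against 373, 315 and 373 without. Scaled to library size, Smad2-205 had 15.67, 15.65 and 22.43 CPM with Activin A, against 26.37, 21.21 and 27.83 CPM without, and the groups overlapped. The split between the pair is uncertain, since the files list Smad2-205 with 2857 bases and the annotation used here with 8089. Smad2-203, a shorter coding form of 434 codons that lacks 2 coding segments of Smad2-201, had 43.6, 61.0 and 23.1 reads with Activin A, against 78.8, 62.4 and 77.6 without, and was not called (edgeR adjusted p = 0.394). Smad2-207, which encodes 58 codons, had 18.7 to 61.2 reads with Activin A, against 54.2 to 64.0 in the group lacking it (edgeR adjusted p = 0.566). Smad2-202, the isoform of 437 codons that lacks 1 coding exon of 90 bases, was at 0 in all 6 libraries. In mammals this exon-skipped form of SMAD2 is known to bind DNA directly, as SMAD3 does, while full-length SMAD2 does not. Whether the 2 segments that Smad2-203 lacks include the exon of 90 bases was not tested.

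Most Smad7 reads fell on 2 transcripts with the same coding sequence. Smad7-201 had 118, 75.7 and 65.6 estimated reads with Activin A, against 68.9, 72.3 and 57.2 without. Smad7-202 had 41.8, 36.8 and 20.4 reads with Activin A, against 17.9, 10.3 and 17.2 without. The log2 fold change was 0.49 for Smad7-201 and 1.2 for Smad7-202 (edgeR adjusted p = 0.28 and 0.193). Scaled to library size, Smad7-201 had 7.37, 5.66 and 6.67 CPM with Activin A, against 4.88, 4.85 and 4.25 CPM without. For Smad7-202 the values were 2.62, 2.76 and 2.02 CPM with Activin A, against 1.27, 0.673 and 1.27 CPM without. Neither transcript overlapped between the groups in CPM, which is a description of few reads. Of all tested genes 42.9% did not overlap, and the same share was not counted for transcripts. Another transcript, Smad7-204, of 769 bases and 227 codons, did not pass the filter. It had 20.5, 6.51 and 7.05 reads with Activin A, against 14.3, 9.39 and 7.15 without, and the groups overlapped.

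The BMP receptor SMADs and Smad6 each had 1 dominant transcript. Smad1-202 held 277 to 419 estimated reads with Activin A, against 364 to 409 in the group lacking it, and Smad1-203, a form of 428 codons, held 1.62 to 12.5 reads, against 11.2 to 16.9. Smad5-201 held 785 to 1142 reads with Activin A, against 929 to 947 in the group lacking it. The noncoding Smad5-205 and Smad5-206 held at most 17.2 and 22.7 reads in any library. All Smad6 reads fell on Smad6-201. The edgeR adjusted p of these 6 transcripts lay between 0.427 and 0.98.

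The proteins that act with or on SMADs were taken from 5 lists of 83 genes, of which 82 were tested. Of these, 6 were higher and 23 were lower with Activin A and 53 did not pass, so that 35.4% were called, against 29.2% of all genes tested (15.2% as higher and 14% as lower). Their median log2 fold change was -0.07, and for 23 of the 29 called genes the change was under 1.5-fold. Among 18 nuclear partners and coactivators, 0 were higher and 4 were lower. Zeb2, a SMAD-binding repressor also known as SIP1, had 26.1, 22.7 and 24.9 CPM with Activin A, against 52.2, 52.8 and 52.7 CPM without. Its log2 fold change was -1.09 (edgeR adjusted p = 1.5e-08), and the groups were far apart. Ep300, a histone acetyltransferase that SMADs recruit, averaged 135.3 ± 5.08 CPM with Activin A and 159.7 ± 2.41 CPM without (log2 fold change -0.24, edgeR adjusted p = 0.00219). Foxh1, the DNA-binding partner of SMAD2 and SMAD3, had a log2 fold change of 0.08 and did not pass (edgeR adjusted p = 0.546).

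Among 15 corepressors and related factors, 5 were higher and 3 were lower with Activin A. Of all tested genes, 15.2% were called as higher and 14% as lower. Without the library without Activin A replicate 3, 5 of the 15 were called. Skil, which encodes the SMAD corepressor SnoN, had 171.1, 147.3 and 192.2 CPM with Activin A, against 94.95, 96.6 and 91.0 CPM without. Its log2 fold change was 0.85 (edgeR adjusted p = 2.9e-06), with no overlap between the groups. Smyd2, a lysine methyltransferase, averaged 43.7 ± 2.50 CPM with Activin A and 27.9 ± 2.68 CPM without (log2 fold change 0.65, edgeR adjusted p = 1.58e-05). The corepressor genes Ncor1 and Ctbp1 were lower, with log2 fold changes of -0.32 and -0.25 (edgeR adjusted p = 0.000147 and 0.00648).

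The largest difference among the 82 tested genes was that of Pmepa1, which encodes a membrane protein that sequesters SMAD2 and SMAD3. It had 20.7, 20.4 and 19.0 CPM with Activin A, against 3.19, 3.10 and 2.77 CPM without. This was 6.62-fold higher, or 2.73 ± 0.11 on the log2 scale (SE; edgeR adjusted p = 2.31e-10). It was the only member of its list of 20 anchors, phosphatases and transport factors to be higher, and 8 were lower. Of all tested genes, 15.2% were called as higher and 14% as lower. Among the 8 lower members, Dab2, an adaptor that links receptors to SMAD2 and SMAD3, had a log2 fold change of -0.34. Xpo4, an exporter of SMAD3, had one of -0.33 (edgeR adjusted p = 0.00124 and 0.00288).

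Among 17 ubiquitin ligases and deubiquitinases, 0 were higher and 5 were lower with Activin A. Of all tested genes, 29.2% were called, 15.2% as higher and 14% as lower. Without the library with Activin A replicate 3, 8 of the 17 were called. Rnf165, a ubiquitin ligase related to Arkadia, averaged 14.4 ± 0.882 CPM with Activin A and 23.99 ± 0.961 CPM without (log2 fold change -0.73, edgeR adjusted p = 8.26e-06). Itch, a HECT-type ligase, had a log2 fold change of -0.28 (edgeR adjusted p = 0.00259). Among 12 tested receptor genes, 0 were higher and 3 were lower, against the same shares of all tested genes. Without the library without Activin A replicate 3, 1 of the receptor genes was called. Acvr2a, a type II Activin receptor, averaged 36.8 ± 5.87 CPM with Activin A and 50.7 ± 1.86 CPM without (log2 fold change -0.48, edgeR adjusted p = 0.000939). Tgfbr1, the type I TGF-beta receptor that SB431542 also inhibits, had a log2 fold change of -0.30 (edgeR adjusted p = 0.00819).

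**Figure D5:**
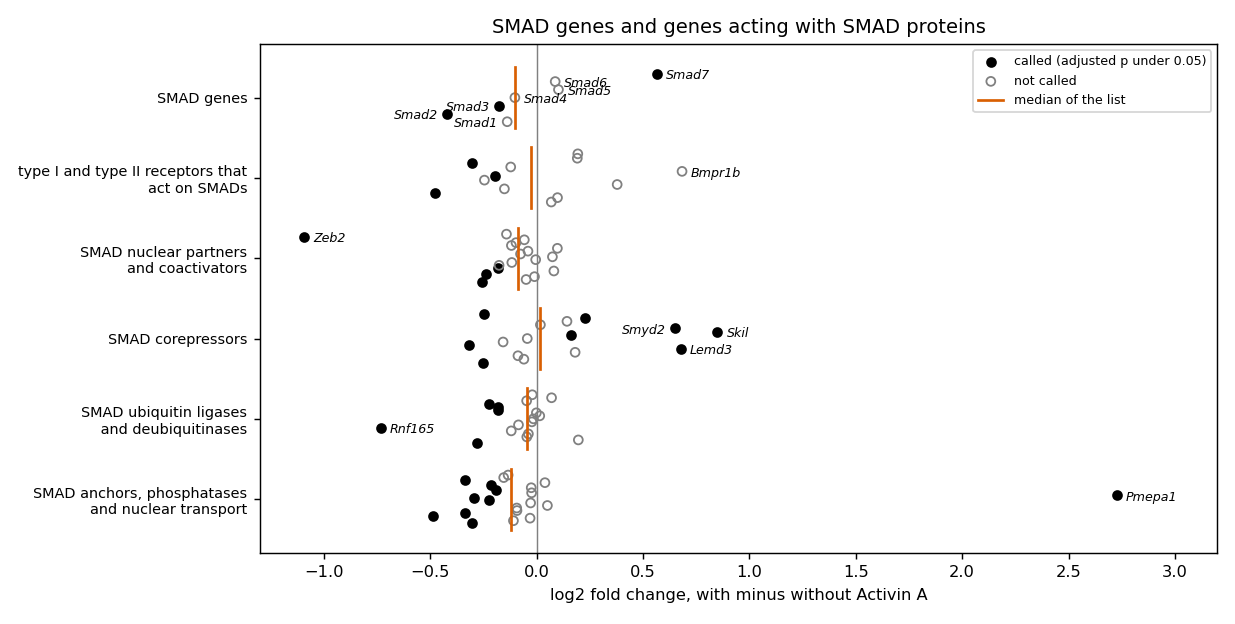
Log2 fold change, with minus without Activin A (x axis), of the 82 tested genes of the 5 lists of SMAD partners and regulators, 1 row a list, with the 7 tested SMAD genes in a row of their own; lines mark the medians, and filled points passed an adjusted p of 0.05. Pmepa1 stands apart at 2.73, and 23 of the 29 called genes lie within a change of 1.5-fold.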

How the data were processed

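Per the file headers, the deposited files give an estimated count and a TPM value for each transcript in the columns that salmon writes. Salmon, DESeq2 and edgeR appear in the submitters' processing notes, with no version. Not given in the sources used here are the authors' genome build, annotation and strand setting. Transcripts were matched by identifier to GENCODE M21 on GRCm38, without the version (133399 of 133618; the 219 unmatched were left out, with 0.140% ± 0.0066 of all reads, SD, n = 6). Estimated counts were summed per gene and rounded. Summing over genes does not correct for transcript length, whereas the deposited TPM does, with effective lengths that were the same in all 6 files. Replicates 1 to 3 had deposited totals of 16350923, 13649370 and 9946521 reads where Activin A was given, against 14228036, 14992042 and 13567995 where it was left out.

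Genes were filtered with filterByExpr (minimum count 10, minimum total 15), scaled by TMM and tested with edgeR 4.0.16 in R 4.3.3 (robust quasi-likelihood F test, Benjamini-Hochberg over all genes tested). A fold is with minus without Activin A, and intervals are 95% intervals of the fit. Single transcripts were tested likewise, and transcript usage with diffSpliceDGE. All 3 steps were tested on simulated data. Tried in its place were upper-quartile and RLE scaling, DESeq2 1.42.0, limma-trend (limma 3.58.1) on log2(TPM + 1) and log2(TPM + 0.1), no filter, a filter of 1 CPM in 3 libraries, a replicate block, each library left out, a length offset, a GC and length offset (mgcv 1.9.3), coding genes or transcripts only and the Simes summary. Chosen after seeing the data were APPRIS principal transcripts, transcripts of at least 1000 bases, limma's diffSplice and the joint removal of replicate 3 with Activin A, the shallowest library, and replicate 1 without it, called the doubted libraries.

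The members, lists and tests were chosen with earlier results of these data known. Named were all SMAD genes, their tested transcripts, up to 2 called genes per list and direction by smallest p, and the 3 genes most like Smad2 (the SMAD gene with the smallest p) and Smad3. Smad2-202, Smad7-204, Foxh1, Tagln, Acta2 and Col1a1 were named after their values were seen.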

Additional observations from a re-analysis of the deposited data

How the results depend on the processing

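Smad2 was called in all 20 alternatives of the gene test, with log2 fold changes of -0.47 to -0.37. Over the 7 tested SMAD genes and these alternatives, 126 of 140 values kept their direction and their side of the threshold, 7 lost a call, 3 gained one and 4 turned sign, all of Smad6 and none of them called. Smad1 and Smad6 were called in none. Smad6 was 0 and -0.011 with limma on log2(TPM + 1) and log2(TPM + 0.1), and -0.12 to 0.28 on leaving out each library. Its transcript Smad6-201 was 0 and -0.011 with limma and -0.13 to 0.30 on leaving out each library. Leaving out each library also turned the sign of uncalled transcripts, with ranges of -0.42 to 0.092 for Smad2-201, -0.01 to 0.13 for Smad4-201, -0.60 to 0.16 for Smad4-204 and -0.45 to 0.44 for Smad5-205. The losses were those of Smad3 and Smad7, including limma on log2(TPM + 0.1) for Smad7 (0.43, adjusted p = 0.244), and the gains were those of Smad4 (also -0.15, edgeR adjusted p = 0.0332, without both doubted libraries) and Smad5. The number of SMAD genes called was 2 to 4 on leaving out each library, against 3. The count of all genes called, 4505, was 1548 with limma on log2(TPM + 1), 1477 on log2(TPM + 0.1), 2050 with the length offset, 1829 with principal transcripts and 3246 to 5689 on leaving out each library. The 29 calls in the 5 lists became 9 and 9 with limma, 16 with the length offset, 13 with principal transcripts and 20 to 37 on leaving out each library. With either limma fit the calls were 0 of partners, 5 of corepressors, 2 of ubiquitin genes, 2 of anchors and 0 of receptors, and after removal of GC and length trends 7 of partners and 8 of receptors. The 1084 transcripts called became 3756 with DESeq2, which called 4 SMAD transcripts against 0, 682 and 632 with limma on log2(TPM + 1) and log2(TPM + 0.1), 67 without both doubted libraries and 222 to 970 on leaving out each library. The 241 genes called for usage became 138 with no filter, 123 by Simes, 443 without both doubted libraries and 223 to 395 on leaving out each library. The 1 SMAD gene called for usage became 0 by Simes, by limma's diffSplice, without both doubted libraries and with transcripts of at least 1000 bases, and 0 to 2 on leaving out each library. The ratio of Activin branch to BMP branch TPM was 2.14 to 2.61 with Activin A and 3.44 to 3.81 without on leaving out each library, and for principal transcripts 1.84 with and 2.16 without Activin A. The cause of these shifts was not tested. Replicate numbers did not pair the libraries: same-numbered libraries correlated at -0.0249, -0.0521 and -0.057 in their deviations from the group means, and no library correlated best with its own number. With the replicate block 4422 genes, 56 transcripts and 120 genes for usage were called, and the calls of Smad2, Smad3 and Smad7 were the same. Depth limits Smad6 and Smad9 most, with at most 82 and 10 estimated reads in any library.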
